A study of Mus musculus with 12 samples.

Results

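The immediate early response was followed through RNA sequencing of GFP-marked mouse bone marrow stromal cells in 10 genes, chosen by name from the 21001 in the expression tables. The members are 4 genes of the Fos family (Fos, Fosb, Fosl1 and Fosl2), 3 of the Jun family (Jun, Junb and Jund), 2 of the EGR family (Egr1 and Egr2) and Ier3. Of these, 9 reached 1 FPKM (fragments scaled to transcript length and library size) in at least 3 of the 12 libraries and were tested among 12314 genes, and Egr2 did not. Fosb reached that level only outside the cultured NC cells, where it stayed under 1 FPKM.

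The 12 libraries fall into 4 groups of 3, all labelled as C57BL/6 mouse bone marrow stem cells (BMSC) with a wild-type genotype. NC holds GFP-BMSCs in primary culture. HOMING holds GFP-BMSCs recovered from the marrow of mice that had been given these cells subcutaneously, with no tumour cells named. BM holds GFP-BMSCs recovered from the marrow of tumour-bearing mice injected with both GFP-BMSCs and RFP-LLCs, a mouse lung carcinoma line with a red fluorescent marker, and TUMOR holds GFP-BMSCs recovered from the inoculation site of such co-injected mice. All groups, NC included, are labelled as sorted before freezing, so the design holds no unsorted library, and neither the gate nor its purity is given. The labels do not say that the libraries of a group come from separate animals or cultures, so p-values measure only the spread between these libraries, which may be technical.

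AP-1 is a dimer of basic leucine zipper proteins, usually a Fos family protein with a Jun family protein, that binds a short palindromic DNA site. Fos, Fosb, Jun, Junb, Egr1 and Egr2 are induced within minutes of growth factor, cytokine, adhesion or stress signals through MAP kinases acting on factors already bound at their promoters, and their mRNAs are short-lived. In stromal cells and fibroblasts AP-1 drives matrix metalloproteinase and cytokine genes, and tissue dissociation and cell sorting are known to induce several of these genes by themselves.

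The libraries held 43232145 to 46166519 expected counts, and log expression correlated at 0.992 to 0.999 within groups and 0.895 to 0.968 between them. Some stromal transcripts were high in every group. Vim, for the intermediate filament vimentin, averaged 866 to 1926 FPKM and Col1a1, for a type I collagen chain, 179 to 270 FPKM. Thy1, Nt5e and Lepr, other markers of this cell type, averaged under 1 FPKM in all groups. The 14 stromal markers summed to 2009 to 2254 FPKM in NC, 2023 to 2091 in HOMING, 1512 to 1620 in BM and 2558 to 2671 in TUMOR. Of 11 tested, 1 rose and 2 fell in HOMING against NC, 3 rose in BM and 1 in TUMOR against NC. In BM against HOMING 3 rose, and in TUMOR against BM and against HOMING 2 rose and 1 fell. The shares of all genes are given below. Blood cell transcripts set HOMING apart. The summed level of 12 neutrophil markers was 2662 to 3954 FPKM in HOMING against 348 to 445 in NC, 411 to 436 in BM and 44.9 to 47.9 in TUMOR, but Lcn2 carried most of that sum outside HOMING (385 FPKM on average in NC and 369.8 in BM). Of 11 tested neutrophil markers, 9 rose in BM against NC, with S100a8 averaging 21.3 FPKM against 0.58 and S100a9 19.8 against 0.11, and of 9 tested monocyte and macrophage markers 8 rose. In that comparison 7.93% of all tested genes rose. Only 6 of the 12 neutrophil and 6 of the 11 monocyte and macrophage markers averaged at least 1 FPKM in BM. Tested markers under that level in BM passed the filter mainly through HOMING, so their rises follow in part from the filter. The 11 monocyte and macrophage markers summed to 225 to 371 FPKM in HOMING against 13.5 to 19.3 in NC, 57.1 to 58.0 in BM and 25.1 to 25.7 in TUMOR. The 5 megakaryocyte markers summed to 29.8 to 41.4 FPKM in HOMING, 6.02 to 7.38 in BM, at most 4.50 in TUMOR and 2.54 to 2.84 in NC. The 7 erythroid markers summed to 2107 to 3470 FPKM in HOMING and to at most 3.53 FPKM in any library of the other groups. Of 6 epithelial markers, Krt8 averaged 64.6 FPKM and Krt19 21.6 FPKM in TUMOR, against at most 6.29 and 4.61 FPKM in the other group means, while Epcam, Cdh1, Cldn4 and Krt18 averaged at most 0.063 FPKM in every group. Among defining markers, Mpo, Elane, Cybb and Slc4a1 were not listed, and so taken as 0, in all 3 NC libraries, as were Mpo, Adgre1 and Hbb-bt in all 3 TUMOR libraries. In bulk libraries of this kind, fewer cells expressing a gene and less RNA per cell cannot be told apart.

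Promoter sequences introduce the members, because these genes are known to be switched on through short sites just upstream of their start. In the RefSeq promoter table (build GRCm38.p6), 8 of the 10 genes had an entry, and Fosl1 and Egr1 had none. The 250 bases before each start were searched on both strands. Bases further upstream were not searched, so a missing match says nothing about them. The cyclic AMP response element core TGACGT was present in Fos and in 3 of the 5 overlapping or neighbouring windows listed for Egr2, against 6.47% of all 32851 windows. The serum response element was present in 4 of the 5 Egr2 windows, against 1.47% of all windows. The core matches in the Egr2 windows are the same bases, and so are most of its serum response element matches. Over all genes, 7.29% held the core and 1.62% the serum response element in any window. The EGR site GCGNGGGCG was present in Fosb and Fosl2, against 4.7%, and the AP-1 variant TGACATCA in Jun, against 2.93%. The canonical AP-1 site TGANTCA, present in 6.75% of all windows, was in none of the members' windows, and Junb, Jund and Ier3 held none of these letters in theirs. No match overlapped another. A match describes the letters alone. The stretches below show the matches in capitals, 5′ to 3′ on the gene's strand. They show that the matches lie from -133 to -38 bases before the listed starts.
Fos, chr12:85473770-85473889, plus strand: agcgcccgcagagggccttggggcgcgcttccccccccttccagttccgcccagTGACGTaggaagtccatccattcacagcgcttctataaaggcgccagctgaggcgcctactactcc
Fosb, chr7:19310079-19310104, minus strand: gacgcaagcGCGGGGGCGggtcccgg
Fosl2, chr5:32136372-32136421, plus strand: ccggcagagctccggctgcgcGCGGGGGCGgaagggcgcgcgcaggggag
Jun, chr4:95052243-95052312, minus strand: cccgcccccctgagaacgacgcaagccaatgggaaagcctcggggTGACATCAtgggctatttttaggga
Egr2, chr10:67537794-67537822, plus strand, with the serum response element followed by the response element core read on the other strand: agtCCATATATGGgcagcgACGTCAcggg

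The members did not move as a block. BM libraries had the highest Fosb, Jun, Junb, Egr1 and Ier3, HOMING libraries had the highest Fos, and TUMOR libraries had the lowest Egr1 and Egr2, while Fosl1 and Fosl2 were called in no comparison. A gene was called, and is said below to rise or fall, where its adjusted p was under 0.05 and its change at least 2-fold in edgeR's quasi-likelihood test with Benjamini-Hochberg adjustment over the 12314 genes. Against NC, 3 of the 9 tested members were called in HOMING (Fos and Ier3 up, Egr1 down), where 14.3% of all tested genes were called, 9.64% higher and 4.69% lower. The comparison of BM with NC called 3, all higher (Fosb, Junb and Ier3), where 11.5% of all genes were called, 7.93% higher and 3.57% lower. Fosb was under 1 FPKM in all NC libraries and passed the filter through recovered libraries, so its rise follows in part from the filter. In TUMOR against NC only Egr1 was called, and it fell, where 16.4% of genes were called, 9.75% higher and 6.65% lower.

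Between the recovered groups, Egr1 was the only tested member called in BM against HOMING, and it rose, where 10.4% of genes were called, 3.71% higher and 6.68% lower. In TUMOR against BM 3 of 9 were called, all lower (Fos, Junb and Egr1), where 14.2% of genes were called, 6.95% higher and 7.28% lower. In TUMOR against HOMING only Fos was called, and it fell, where 10.8% of genes were called, 4.42% higher and 6.37% lower. At adjusted p under 0.05 with no minimum fold, 6 of 9 members passed in HOMING against NC, near the 70.0% of all genes that did. In BM against NC 7 of 9 passed, all higher, where 66.6% of genes passed and 34.4% passed higher, and in TUMOR against NC 7 of 9 passed, where 73.6% of genes did. In BM against HOMING 6 of 9 passed, all higher, where 58.1% passed and 29.3% passed higher. In TUMOR against BM 6 of 9 passed, all lower, where 69.6% passed and 34.2% passed lower, and in TUMOR against HOMING 5 of 9 passed, where 55.0% did. The median log2 fold change of the 9 was 0.36 in HOMING, 0.89 in BM and -0.11 in TUMOR against NC. It was 0.39 in BM against HOMING, -0.59 in TUMOR against BM and -0.14 in TUMOR against HOMING. Those of all tested genes lay between -0.005 and 0.016. The members were chosen with earlier results of these data known, so the shares and medians of all genes are no test of the set. The 6 comparisons share libraries and are not independent of one another.

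**Figure D1:**
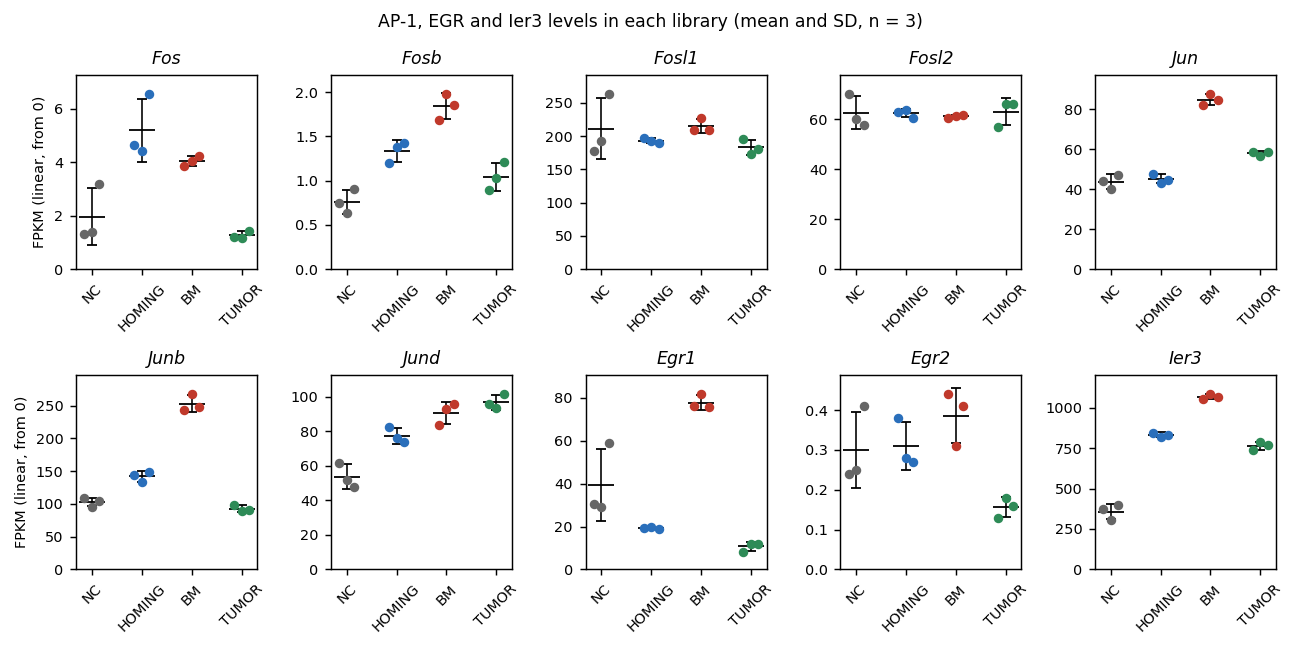
FPKM of each of the 10 genes in each of the 12 libraries, with the group mean (horizontal line) and SD (bars, n = 3) on linear axes from 0 that differ between panels. The 3 BM libraries stand above every other library for Jun, Junb, Egr1 and Ier3, and NC replicate 3 stands above the other NC libraries for Fos, Fosl1 and Egr1.

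**Figure D2:**
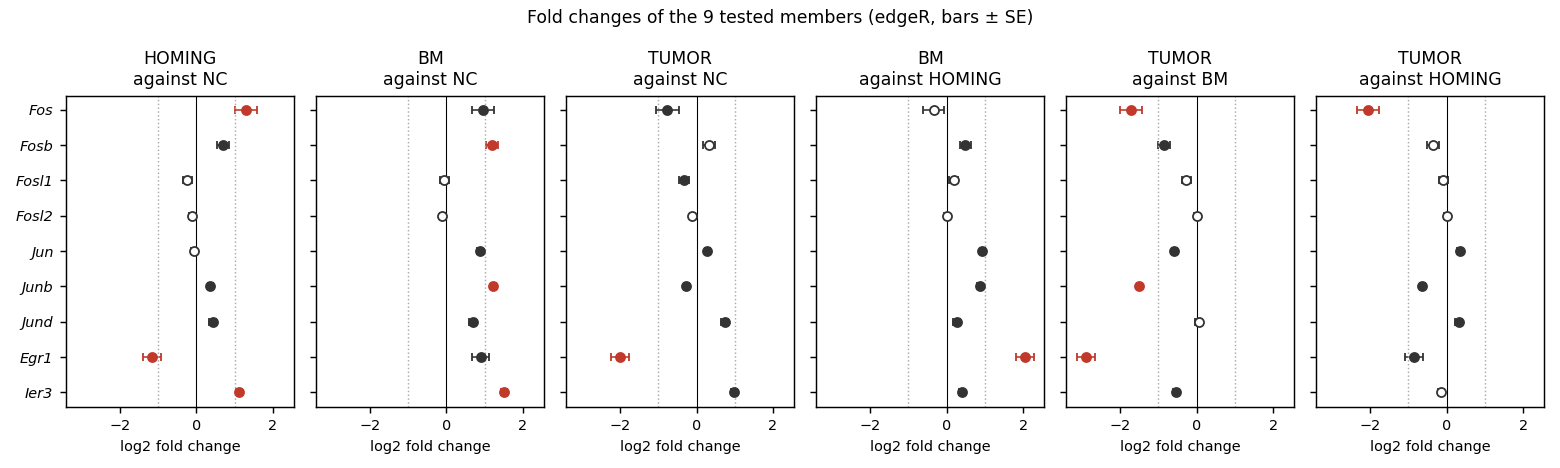
Log2 fold change ± SE of the 9 tested genes in the 6 comparisons, by edgeR. Red points passed adjusted p 0.05 and the 2-fold minimum (dotted lines at a log2 fold change of -1 and 1), dark points passed adjusted p alone, and open points passed neither. Egr1 ranges from -2.89 in TUMOR against BM to 2.05 in BM against HOMING.

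Within the Fos family, nearly all transcripts came from the FRA genes. Fosl1 encodes FRA1 and Fosl2 encodes FRA2, family members that lack the strong activation domain of FOS. Fosl1 made up 73.6 to 76.2% and Fosl2 21.7 to 25.4% of the family's summed FPKM in the group means, whereas Fos made up 0.509 to 1.99% and Fosb 0.275 to 0.653%. The family sum was 276 ± 42.2 FPKM in NC, 262 ± 4.00 in HOMING, 282 ± 10.5 in BM and 249 ± 7.04 in TUMOR (SD, n = 3 each). Expected counts, which are not scaled to transcript length, turn the order of the FRA genes, with Fosl2 at 49.3 to 54.5% and Fosl1 at 44.5 to 48.6% of the family. The FPKM sums overlapped between NC and the other groups.

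Fos, the founding member and the standard marker of recent stimulation, was present at low FPKM. In replicates 1, 2 and 3 it was 1.31, 1.40 and 3.19 FPKM in NC, 4.65, 4.41 and 6.56 in HOMING, 3.85, 4.04 and 4.22 in BM, and 1.21, 1.16 and 1.43 in TUMOR, from 103 to 588 counts a library. All HOMING and BM libraries stood above all NC and TUMOR libraries, and HOMING stood above BM. Fos rose in HOMING against NC (log2 fold change 1.29 ± 0.28 SE, adjusted p = 0.00129), and it was higher in BM against NC without reaching the 2-fold minimum (0.95 ± 0.28, adjusted p = 0.0103). It fell in TUMOR against BM (-1.71 ± 0.30, adjusted p = 0.000217) and against HOMING (-2.05 ± 0.30, adjusted p = 7.94e-05). The difference of BM from HOMING, -0.34 ± 0.27, did not pass (adjusted p = 0.307). Without NC replicate 3, the highest of its group, the change in BM against NC was 1.51 and was called, and that of TUMOR against NC moved from -0.77 (adjusted p = 0.0363) to -0.21 (adjusted p = 0.322). The HOMING library with the highest Fos, replicate 3, also had the highest neutrophil, monocyte and erythroid sums (3954, 371 and 3470 FPKM), and their part in the result was not tested. Without that library the change in HOMING against NC was 1.09 (adjusted p = 0.00700).

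Fosb, a close relative of Fos whose protein accumulates under repeated stimulation as a shortened form, was rarer still. In replicates 1, 2 and 3 it was 0.75, 0.63 and 0.90 FPKM in NC, 1.20, 1.38 and 1.43 in HOMING, 1.69, 1.98 and 1.86 in BM, and 0.89, 1.03 and 1.21 in TUMOR. BM was above all other libraries, and TUMOR overlapped both NC and HOMING. Fosb rose in BM against NC by 1.19 ± 0.16 on the log2 scale (adjusted p = 2.56e-05), and a limma fit of log2(FPKM + 1) gave 0.69, under the minimum, a scale that understates changes of low genes. In HOMING against NC it was 0.70 ± 0.16 (adjusted p = 0.00151), and in TUMOR against BM -0.86 ± 0.15 (adjusted p = 0.000274), both short of 2-fold. Because Fosb passed the filter only through recovered libraries, a rise against NC follows in part from that filter.

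Fosl1 was 177, 193 and 263 FPKM in NC, 197, 193 and 189 in HOMING, 209, 226 and 209 in BM, and 196, 173 and 181 in TUMOR. NC replicate 3 was the highest of all 12 libraries, and NC overlapped every other group. No comparison called Fosl1, and the largest change, -0.33 ± 0.12 in TUMOR against NC (adjusted p = 0.0266), was -0.12 without NC replicate 3 (adjusted p = 0.110). Fosl2 was 57.1 to 70.2 FPKM over the 12 libraries, with overlapping groups in all 6 comparisons. Its log2 fold changes lay between -0.12 and 0.00, with adjusted p of at least 0.134. In the reference annotation Fosl1 overlaps Ccdc85b, and the labels do not say whether the counting used strand, so reads of the overlap cannot be assigned with certainty.

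**Figure D3:**
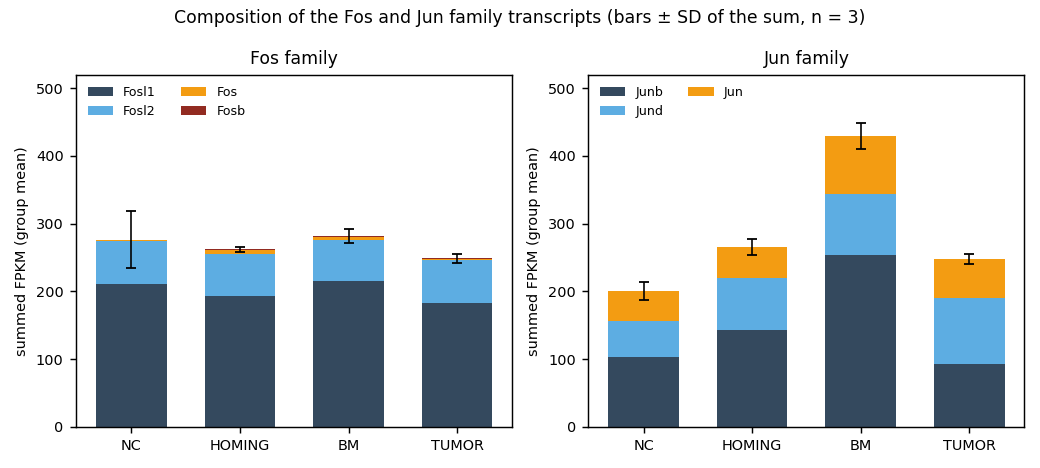
Group mean FPKM of the Fos family genes (left) and Jun family genes (right), stacked by gene from 0, with the SD of the family sum (bars, n = 3). The Fos family sum is 249 to 282 FPKM in the 4 groups, and the Jun family sum is 429 FPKM in BM against 200.2 to 265 FPKM in the other groups.

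The Jun family differed more between the groups. Its summed level was 187 to 214 FPKM in NC, 252 to 275 in HOMING, 409 to 448 in BM and 239 to 253 in TUMOR, so all 3 BM libraries stood above the rest. Junb made up the largest share in NC, HOMING and BM (51.4 ± 0.96%, 53.7 ± 1.77% and 59.1 ± 0.96% of the family's FPKM), while in TUMOR Jund had 39.1 ± 1.33% and Junb 37.4 ± 1.41% (SD, n = 3). Jun had 17.1 to 23.4% in the 4 groups. The order in TUMOR depends on the unit: on expected counts it was Jund 44.2%, Jun 29.2% and Junb 26.5%. With only the top transcript of each gene it was Junb 46.4%, Jun 29.2% and Jund 24.4%. That setting keeps 1 of 2 Jund transcripts with equal values, each 50% of its FPKM, so it lowers Jund by construction and cannot decide the order.

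Junb, the family member often described as tempering the growth-promoting activity of JUN, was 108, 95.5 and 105 FPKM in NC, 145, 133 and 149 in HOMING, 244, 268 and 248 in BM, and 98.5, 89.1 and 90.4 in TUMOR. BM and HOMING each stood clear of all other groups, and TUMOR overlapped NC. Junb rose in BM against NC (1.22 ± 0.07, adjusted p = 2.59e-08) and fell in TUMOR against BM (-1.49 ± 0.07, adjusted p = 2.29e-09). Changes short of 2-fold were 0.36 ± 0.07 in HOMING against NC, 0.86 ± 0.07 in BM against HOMING (adjusted p = 3.18e-07) and -0.63 ± 0.07 in TUMOR against HOMING (adjusted p = 5.67e-06). In TUMOR against NC it was -0.27 ± 0.07 (adjusted p = 0.00252).

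Jun, the strongest activator of its family, was 44.1, 39.9 and 47.2 FPKM in NC, 47.7, 43.1 and 44.8 in HOMING, 82.0, 87.6 and 84.4 in BM, and 58.7, 56.7 and 58.5 in TUMOR. NC and HOMING overlapped, TUMOR stood above both and BM above TUMOR. No comparison reached 2-fold. The log2 fold change was 0.93 ± 0.07 in BM against HOMING (adjusted p = 1.25e-07), 0.87 ± 0.07 in BM against NC (adjusted p = 2.53e-07) and -0.59 ± 0.06 in TUMOR against BM (adjusted p = 4.85e-06), while HOMING against NC gave -0.06 (adjusted p = 0.390).

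Jund, the most steadily expressed Jun gene in most tissues, followed another order. It was 61.7, 51.5 and 47.6 FPKM in NC, 82.7, 75.9 and 73.9 in HOMING, 83.7, 93.2 and 95.9 in BM, and 95.9, 93.3 and 102 in TUMOR. All recovered libraries stood above all NC libraries, and BM and TUMOR overlapped (0.05, adjusted p = 0.599). The differences from NC were 0.42 ± 0.08 in HOMING, 0.68 ± 0.08 in BM and 0.73 ± 0.08 in TUMOR, with adjusted p of 0.00048, 1.22e-05 and 3.68e-06, all short of 2-fold. The tables list Jund as 2 RefSeq transcripts of equal length with the same value in every library, which were summed here.

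Egr1, a zinc finger factor that binds GC-rich sites and shares its inducing signals with Fos, had the largest ratio of highest to lowest library among the tested members. It was 30.6, 29.0 and 58.9 FPKM in NC, 19.3, 19.6 and 18.6 in HOMING, 76.0, 81.7 and 75.6 in BM, and 8.26, 12.1 and 12.1 in TUMOR. None of the 4 groups overlapped, in the order BM, NC, HOMING and TUMOR, although NC replicate 3 lay far above the other NC libraries. Egr1 fell in TUMOR against NC (-2.00 ± 0.24, adjusted p = 6.44e-06) and in TUMOR against BM (-2.89 ± 0.24, adjusted p = 4.66e-07), and it rose in BM against HOMING (2.05 ± 0.23, adjusted p = 9.65e-06). The fall in HOMING against NC, -1.16 ± 0.23 (adjusted p = 0.000587), was -0.73 without NC replicate 3 and no longer reached 2-fold, and limma fits gave -0.93 and -0.96. In BM against NC it was 0.89 ± 0.22 (adjusted p = 0.00374), and 1.32 and called without NC replicate 3. TUMOR against HOMING gave -0.84 ± 0.23 (adjusted p = 0.00856). The monocyte and macrophage sums, 57.1 to 58.0 FPKM in BM, were above those of NC and TUMOR and below those of HOMING, and the part of other cells in the members' values in BM was not tested.

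Egr2, a related zinc finger factor known for its role in myelinating Schwann cells, was at a low level, 0.24, 0.25 and 0.41 FPKM in NC, 0.38, 0.28 and 0.27 in HOMING, 0.44, 0.31 and 0.41 in BM, and 0.13, 0.18 and 0.16 in TUMOR, from 16 to 57 counts a library. The 3 TUMOR libraries were below all others, and the other groups overlapped. With no filter on low values, over 20956 genes, edgeR gave -1.10 ± 0.28 in TUMOR against NC (adjusted p = 0.0036), -1.39 ± 0.28 against BM (adjusted p = 0.000581) and -1.02 ± 0.28 against HOMING (adjusted p = 0.00888). Egr2 overlaps the long noncoding gene Gm32255 in the reference annotation, so its few reads may not all be its own.

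Ier3, which is no transcription factor but encodes a small membrane-associated regulator of cell survival induced by stress and NF-kB, was the most abundant member per length. It was 373, 304 and 397 FPKM in NC, 847, 817 and 833 in HOMING, 1054, 1083 and 1068 in BM, and 736, 785 and 771 in TUMOR. No groups overlapped, and NC was the lowest. Ier3 rose in HOMING (1.11 ± 0.08, adjusted p = 7.15e-08) and in BM (1.50 ± 0.08, adjusted p = 1.97e-08) against NC. Without NC replicate 2 the HOMING change was 1.00, just under the minimum. In TUMOR against NC it was 0.97 ± 0.08 (adjusted p = 2.08e-07), and 1.06 and called without NC replicate 3. TUMOR against BM gave -0.53 ± 0.08 (adjusted p = 6.33e-05), and TUMOR against HOMING gave -0.14 (adjusted p = 0.155).

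Other genes of the same pathways were read from lists chosen with earlier results of these data known, against the shares of all genes given above. Batf, Klf6, Arc, Dusp2, Itgb3, Mmp9 and Hspa1a averaged under 1 FPKM in NC and entered mainly through other groups, so their rises against NC, counted below, follow in part from the filter. Of 12 tested dimer partners of AP-1 from the ATF, BATF, JDP and MAF families, 1 rose and 3 fell in HOMING against NC, 1 rose and 1 fell in BM against NC, and 1 rose and 5 fell in TUMOR against NC. In BM against HOMING 3 rose and 2 fell, in TUMOR against BM 4 fell, and in TUMOR against HOMING 2 fell. Atf3, a stress-induced factor that often represses its targets, was 58.9 ± 4.09 FPKM in NC, 13.4 ± 1.60 in HOMING, 97.2 ± 1.04 in BM and 10.7 ± 0.31 in TUMOR (SD, n = 3). It rose in BM against HOMING (2.88 ± 0.08, adjusted p = 1.2e-10) and fell in TUMOR against BM (-3.22 ± 0.08, adjusted p = 3.93e-11), and the groups stood in the order of Egr1. Atf4, the effector of the integrated stress response, was 489 FPKM in NC, 308 in HOMING, 565 in BM and 304 in TUMOR, with no change of 2-fold. Mafk, a small MAF protein, fell in TUMOR against NC (-1.15 ± 0.06, adjusted p = 5.85e-09). Batf, a factor of immune cells and the only partner that rose against NC in any group, passed the filter through HOMING alone, with 856 counts over the 3 HOMING libraries, 37 in BM, 19 in TUMOR and 2 in NC, moving with the blood marker sums, whose part was not tested.

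Egr3, another EGR gene, was 0.99 to 3.76 FPKM in NC and was called in no comparison. Nab1 and Nab2 encode corepressors that bind EGR proteins. Nab1 was 11.0 ± 0.46 FPKM in NC, 17.3 ± 1.96 in HOMING, 22.8 ± 0.24 in BM and 10.8 ± 0.56 in TUMOR (SD, n = 3), and it fell in TUMOR against BM (-1.12 ± 0.08, adjusted p = 6.54e-08), the only call among the 3 tested genes of that list. Nab2 averaged 24.8 to 34.1 FPKM with no call.

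Among 31 tested other immediate early genes, 4 rose and 5 fell in HOMING against NC, 5 rose and none fell in BM against NC, and 2 rose and 10 fell in TUMOR against NC. In BM against HOMING 8 rose and 2 fell, in TUMOR against BM 1 rose and 13 fell, and in TUMOR against HOMING 7 fell. Klf4, a zinc finger factor of stem and epithelial cells, was 43.4 FPKM in NC and 42.7 in BM, and it fell in HOMING against NC (-2.10 ± 0.07, adjusted p = 9.39e-11) and in TUMOR against NC (-1.60 ± 0.07, adjusted p = 6.42e-10). Nfil3, a bZIP repressor, was 46.5 FPKM in BM and 15.2 to 22.7 FPKM in the other group means, and it rose in BM against HOMING (1.64 ± 0.05, adjusted p = 2.76e-10). Cebpd, an acute phase factor, fell in TUMOR against each other group, at -2.28 ± 0.09 against NC (adjusted p = 6.34e-10). Nr4a2, an orphan nuclear receptor, was highest in NC at 9.89 FPKM and fell in HOMING (-1.31 ± 0.08) and TUMOR (-1.86 ± 0.08) against NC.

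The signalling genes that feed these promoters had few calls. Of 19 tested MAP kinases, their activating kinases and serum response factors, 1 was called in the 6 comparisons: Elk3, a ternary complex factor, rose in TUMOR against NC (1.26 ± 0.10, adjusted p = 1.61e-07). Mapk7 and Mapk9, both MAP kinases, had log2 fold changes between -0.72 and 0.63. Of 11 tested phosphatases and inhibitors that damp MAP kinases, 2 rose in each recovered group against NC and none fell. In BM against HOMING 1 rose and 1 fell, in TUMOR against BM 1 fell, and in TUMOR against HOMING none was called. Dusp8 was 12.6 FPKM in BM and 4.60 to 6.32 FPKM in the other group means, rising against HOMING (1.41 ± 0.06, adjusted p = 3.46e-09). Dusp2, a phosphatase of immune cells, was highest in HOMING at 3.57 FPKM, Dusp10 rose in HOMING (1.07 ± 0.11) and TUMOR (1.16 ± 0.11) against NC, and Dusp16 rose in BM against NC (1.05 ± 0.06).

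Of 19 tested genes known as AP-1 targets, 6 rose and 1 fell in HOMING against NC, 10 rose and 1 fell in BM against NC, and 2 rose and 6 fell in TUMOR against NC. In BM against HOMING 5 rose and 3 fell, in TUMOR against BM none rose and 8 fell, and in TUMOR against HOMING 1 rose and 10 fell. The median log2 fold change of the list was 0.47 in HOMING, 1.16 in BM and -0.47 in TUMOR against NC. It was 0.12 in BM against HOMING, -0.88 in TUMOR against BM and -1.03 in TUMOR against HOMING. Those of all tested genes lay between -0.005 and 0.016. Mmp3, a matrix metalloproteinase, was 19.1 ± 2.52 FPKM in NC, 57.7 ± 7.41 in HOMING, 310.1 ± 9.88 in BM and 20.0 ± 4.65 in TUMOR (SD, n = 3). It rose in BM against HOMING (2.45 ± 0.15, adjusted p = 3.94e-08) and fell in TUMOR against BM (-4.00 ± 0.16, adjusted p = 1.1e-09). Ccl2, a monocyte chemoattractant, was 794 FPKM in NC, 1249 in HOMING, 2412 in BM and 401 in TUMOR. Il6, an inflammatory cytokine, was 32.4 FPKM in BM and 1.81 in TUMOR, a fall of -4.21 ± 0.19 (adjusted p = 1.97e-09). Vegfa, an angiogenic growth factor, rose in BM against HOMING (1.07 ± 0.04, adjusted p = 9.68e-10). Mmp9, Itgb3 and Tgfb1, counted among the risen genes in HOMING, are also made by blood cells. Mmp9 averaged 14.5 FPKM in HOMING against 0.83 in NC, Itgb3 2.49 against 0.090 and Tgfb1 33.5 against 9.46. Itgb3, counted as risen in BM and TUMOR too, averaged 0.55 and 0.20 FPKM there and passed the filter through HOMING alone. The neutrophil and megakaryocyte sums given above move with these genes, and their part was not tested.

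Heat shock genes, a readout of proteotoxic stress that is also sensitive to handling, had another order. Of 10 tested, 2 rose in HOMING and 3 rose in TUMOR against NC, and BM against NC held no call. In BM against HOMING 2 fell, in TUMOR against BM 2 rose, and in TUMOR against HOMING none was called. Hspa1b, an inducible HSP70 gene, was 2.65 ± 0.44 FPKM in NC, 11.7 ± 0.26 in HOMING, 4.62 ± 0.18 in BM and 14.8 ± 1.12 in TUMOR (SD, n = 3). It rose in HOMING (2.03 ± 0.09, adjusted p = 1.24e-09) and in TUMOR (2.35 ± 0.09, adjusted p = 4.68e-10) against NC, and was lower in BM than in HOMING (-1.31 ± 0.09, adjusted p = 8.9e-08). It shares near-identical sequence with Hspa1a, so the split of reads between the pair is uncertain. Hspa8, a constitutive relative, rose in TUMOR against NC (1.16 ± 0.07, adjusted p = 1.26e-08), and Hsph1 and Dnajb1, its cochaperones, reached 0.99 ± 0.10 and 0.66 ± 0.06 there, short of 2-fold. Egr1 was highest in BM, the recovered group with the lowest mean of most tested heat shock genes, Hspa1b among them. The others were lowest in HOMING among the recovered groups. Of these, Hspd1 had its highest mean in BM, at 220 to 232 FPKM against 187 to 251 in TUMOR. What handling contributed to these genes was not tested.

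**Figure D4:**
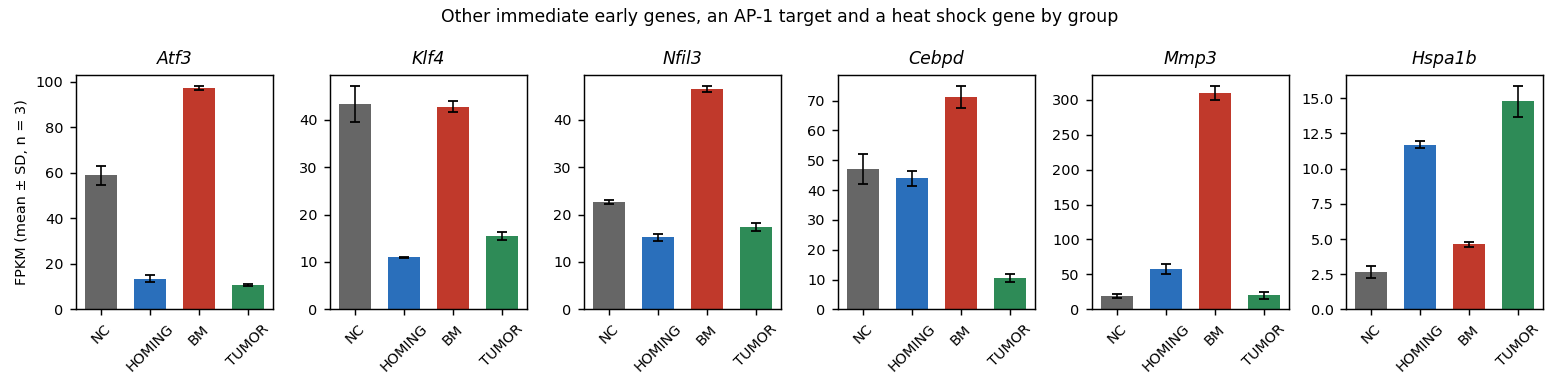
Group mean FPKM with SD (bars, n = 3) of Atf3, Klf4, Nfil3 and Cebpd, other immediate early genes or AP-1 partners, of Mmp3, an AP-1 target, and of Hspa1b, a heat shock gene, on linear axes from 0 that differ between panels. Atf3, Nfil3, Cebpd and Mmp3 are highest in BM, and Hspa1b is lowest in NC at 2.65 FPKM and highest in TUMOR at 14.8 FPKM.

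Genes with the most similar pattern over the 12 libraries were ranked by the root mean square difference of centred log2(FPKM + 1), among 8269 eligible genes. For Egr1 the nearest were Stc2, a secreted glycoprotein (0.205), Plk3, a polo-like kinase (0.257), and Gdnf, a neurotrophic factor (0.274). Stc2 averaged 35.0 FPKM in NC, 15.5 in HOMING, 59.6 in BM and 8.23 in TUMOR. For Fos they were Ptpn22, a phosphatase of immune cells (0.171), Rab20, a small GTPase (0.210), and Ifitm3, an interferon-induced membrane protein (0.228). Ptpn22 averaged 9.09 FPKM in NC, 16.3 in HOMING, 13.2 in BM and 5.23 in TUMOR. For Junb they were Il13ra1, a cytokine receptor chain (0.106), Nfkb1, an NF-kB subunit (0.130), and Adamts7, a secreted protease (0.131). Nfkb1 averaged 35.5 FPKM in NC, 46.0 in HOMING, 73.1 in BM and 29.7 in TUMOR. For Fosl1, which varied little, they were Lrrfip2 (0.0778), Rhoc (0.0888) and Ttc7 (0.0912). The 12 points of each gene come from the same libraries, and this likeness is a description.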

How the data were processed

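RNA was sequenced from 12 libraries, 3 each of NC, HOMING, BM and TUMOR cells, grouped by sample titles. Per the labels' protocols, Trizol extraction of frozen sorted cells was followed by Illumina TruSeq preparation. Per the submitters' processing notes, Bowtie 0.12.2 and build mm8 were used, while the program behind the counts is not stated in these sources. In the deposited tables the authors give expected counts (estimated reads per transcript, not normalized) and FPKM, scaled by the authors to transcript length and library size and rounded, with 0.01 the lowest listed value. Unlisted transcripts were set to 0.

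Both units were summed per Entrez number, giving 21001 genes, and 19629 of 19679 numbers matched a symbol. The 1322 genes without a number took 2.08 to 2.65% of counts. Counts were rounded, and 12314 genes at or above 1 FPKM in 3 or more libraries were kept. After TMM scaling (factors 0.929 to 1.04), edgeR 4.0.16 under R 4.3.3 fitted 1 quasi-likelihood model of the 4 groups, with two-sided F-tests, Benjamini-Hochberg adjustment over all tested genes, and calls at adjusted p under 0.05 and 2-fold. SE is the log2 fold change divided by the root of F. The procedure was checked on simulated counts. With 3 against 3 libraries an exact permutation test cannot go below p = 0.1, so none is given.

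The alternatives were DESeq2 1.42.0, limma 3.58.1 on log2(FPKM + 1) and log2(FPKM + 0.1), other scalings, other filters, the compared groups alone, a replicate block, the top transcript of a gene, and leaving out each library. Dropping the minimum fold was added after seeing the data. The members and lists were chosen with earlier results of these data known. From each list up to 4 genes with the smallest adjusted p in any comparison are named (1 such gene is not reported here), and nearest patterns are the 3 closest named genes averaging at least 5 FPKM. Vim, Col1a1, Thy1, Nt5e, Lepr, Lcn2, S100a8, S100a9, Krt8, Krt19, Klf6, Arc, Hspa1a, Hspd1, Mmp9, Itgb3 and Tgfb1 were named after their values were seen. Promoters come from RefSeq (GRCm38.p6), another build than the authors' mapping, and are used for sequence alone.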

Additional observations from a re-analysis of the deposited data

Results flagged for a closer look

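Some members lay on opposite sides of NC in 2 recovered groups, and the difference between those groups itself passed edgeR's test with Benjamini-Hochberg adjustment. All 3 libraries of a group enter each test, and the differences from NC share the NC libraries. Groups of 3 are too small for a check of stray libraries. Egr1 was 0.89 above NC in BM and -1.16 from NC in HOMING on the log2 scale, a difference of 2.05 (adjusted p = 9.65e-06). Egr1 in TUMOR lay -2.00 from NC, which makes -2.89 against BM (adjusted p = 4.66e-07). Fos lay 0.95 above NC in BM, 1.29 above it in HOMING and -0.77 from it in TUMOR, so TUMOR differed by -1.71 from BM (adjusted p = 0.000217) and by -2.05 from HOMING (adjusted p = 7.94e-05). Junb lay 1.22 above NC in BM and -0.27 from it in TUMOR, a difference of -1.49 (adjusted p = 2.29e-09). The Junb libraries of TUMOR and NC overlapped. Under the alternatives that change lay between -0.33 and -0.15 and did not always pass adjusted p 0.05. The position of Fos in TUMOR relative to NC rests largely on NC replicate 3, without which it is -0.21.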

How the results depend on the processing

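Of the members' log2 fold changes recomputed under the alternatives, 804 kept their direction and side of the threshold, 12 came to pass it, 5 no longer passed it and 37 changed sign. The sign changes all concern members with no call: Fosl2, and Jun in HOMING against NC, Fosl1 in BM against NC and Jund in TUMOR against BM. Jun in HOMING against NC was 0.0484 and 0.0494 with limma at pseudocounts of 1 and 0.1, and 0.0491 with library size scaling. Fosl1 in BM against NC was 0.0464, 0.0467 and 0.0282 under these, and Fosl2 in TUMOR against NC 0.0107, 0.0108 and 0.0103. Fosl2 in BM against HOMING was -0.00932 with DESeq2 and with median-ratio scaling, -0.0282 and -0.0286 with limma, -0.0300 with library size scaling, -0.00655 over genes expressed in NC and -0.00629 with the top transcript. Fosl2 in TUMOR against BM was -0.00143 with DESeq2, -0.00144 with median-ratio scaling, -0.0599 with no filter and -0.00096 with the compared groups alone, and Jund was -0.0122 with no filter. Fosl2 in TUMOR against HOMING was -0.0108 with DESeq2 and with median-ratio scaling, -0.0274 with no filter and -0.00654 over genes expressed in NC. The cause was not tested. Library size scaling shifted the median of all genes by 0.11 in HOMING and 0.12 in TUMOR against NC.

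Leaving out 1 library in turn gave -0.129 to 0.00806 for Jun in HOMING against NC, -0.178 to 0.150 for Fosl1 in BM against NC and -0.00477 to 0.0850 for Jund in TUMOR against BM. For Fosl2 it gave -0.0207 to 0.0153 in BM against HOMING, -0.0324 to 0.0627 in TUMOR against BM and -0.0315 to 0.0636 in TUMOR against HOMING.

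Smaller moves of the counts are not all listed here. Members called in HOMING against NC were 2 to 3 without 1 library, where Egr1 or Ier3 was lost, and both limma fits also lost Egr1. Members called in BM against NC were 5 with limma at a pseudocount of 0.1 and 3 to 5 without 1 library. In TUMOR against NC they were 2 with both limma fits, library size scaling, no filter and genes expressed in NC, and 1 to 2 without 1 library, and in TUMOR against HOMING 2 with no filter. The calls beyond those reported were Fos, Egr1, Ier3 and, with no filter, Egr2. With no minimum fold 6, 7, 7, 6, 6 and 5 members passed, and 8617, 8198, 9068, 7158, 8576 and 6776 genes, in HOMING, BM and TUMOR against NC, BM against HOMING, TUMOR against BM and TUMOR against HOMING. In the same order all genes called were 1765, 1416, 2019, 1280, 1752 and 1329 as reported, and 3302, 2537, 3420, 2581, 3162 and 2702 with no filter, where more genes are tested. Over genes expressed in NC, fewer are tested, and they were 988 and 743 in HOMING and BM against NC, 538 in BM against HOMING, 1022 in TUMOR against BM and 541 in TUMOR against HOMING. With limma at a pseudocount of 1 they were 626 in BM against NC, 1301 in TUMOR against NC and 930 in TUMOR against BM.

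Of the recomputed family shares 102 moved by less than 1 SD and 38 by more, all 38 with expected counts or the top transcript in place of summed FPKM. Same-numbered replicates did not pair: their deviations correlated at -0.12 to 0.22. A replicate block called 3, 4, 1, 1, 3 and 1 members, with Fos in BM against NC at 1.03 the added call. The few counts of Egr2 limit its precision, and 3 libraries per group limit that of every change.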
